A study of Sus scrofa with 9 samples.

Results

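The Wnt ligands, their Frizzled receptors, and the secreted proteins that hold them back or amplify them were followed across pig muscle-derived cells that expressed human DUX4, pig DUXC or GFP. Genes were taken by symbol: WNT, FZD, SFRP, DKK and RSPO followed by a number, with an A or B allowed for WNT. Of 27339 genes counted, 41 matched, namely 19 Wnt ligands, 10 Frizzled receptors, 4 secreted Frizzled-related proteins (SFRP), 4 Dickkopf proteins (DKK) and 4 R-spondins (RSPO). RNA from primary Göttingen pig myoblasts at passages 7 to 9 was sequenced in 3 groups of 3 libraries. The groups carried a doxycycline-inducible transgene of human DUX4, of pig DUXC or of GFP, and all of them, the GFP control included, received 1 µg/mL doxycycline for 16 h before harvest. Human DUX4, a transcription factor with a pair of homeodomains, is active in the early embryo and causes facioscapulohumeral muscular dystrophy when it is switched on in muscle. Pig DUXC is a related double homeobox gene. By its title the study is about embryonic programs activated by both factors across species. Each comparison with GFP shows here which Wnt genes differed between cells with a factor and cells with GFP. Uninduced cells were not among the libraries, and other differences between the cells of the groups were not tested.

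Wnt proteins are secreted, lipid-modified glycoproteins that bind the cysteine-rich domain of Frizzled receptors. With the co-receptors LRP5 and LRP6 they stabilise beta-catenin, which enters the nucleus and switches on target genes through TCF and LEF factors, while other Wnts act through planar polarity and calcium routes without it. SFRP proteins carry a Frizzled-like domain and bind Wnts outside the cell, DKK1 and DKK2 bind the LRP co-receptors, and R-spondins bind LGR receptors and spare Frizzled from the ubiquitin ligases ZNRF3 and RNF43. In muscle, Wnt signals are known to act on satellite cells, the stem cells of the tissue, and on the fibroblasts around them.

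Total counts ranged from 36580573 to 44420895 per library, and levels are given as CPM, the counts scaled to a common library size after normalisation, as mean ± SD over n = 3 libraries or library by library. Fold changes are given on the log2 scale with their standard error (SE). Separate cultures are not named in the labels for libraries of the same group, and the p-values therefore reflect the spread among the libraries alone, which could be technical. Transcript lengths were not used here, so levels are compared between groups for 1 gene and not between genes. Myogenic markers were scarce with GFP: PAX7 stood at 0.402 CPM, MYF5 at 0.705 CPM, MYOD1 had 1 count and MYOG 6 counts. All 10 fibroblast markers and 8 of 9 smooth muscle and pericyte markers had a mean of at least 1 CPM with GFP. The same held for 3 of 8 endothelial, 2 of 6 immune, 2 of 10 myogenic and 0 of 6 adipocyte markers. The summed level of the fibroblast markers was 49932 to 53058 CPM per library with GFP, 29043 to 32778 with DUX4 and 25694 to 25715 with DUXC, with 9 of 10 markers lower and 1 higher with DUX4 and 6 lower and 3 higher with DUXC. The 9 smooth muscle and pericyte markers summed to 3090.2 to 3296, 1310.1 to 1424 and 794 to 817 CPM, with 6 lower and 2 higher with DUX4 and 7 lower and 2 higher with DUXC. The 10 myogenic markers summed to 13.9 to 14.9, 18.6 to 21.4 and 10.7 to 11.5 CPM in the same order, 8 endothelial markers to 69.6 to 73.0, 87.1 to 91.3 and 81.0 to 85.1, 6 immune markers to 9.86 to 12.1, 7.33 to 8.38 and 6.22 to 6.95, and 6 adipocyte markers to 1.31 to 1.62, 5.08 to 5.69 and 36.5 to 40.8. Of the 5 myogenic markers tested, 2 were higher and 1 lower with DUX4, and 3 were higher and 2 lower with DUXC. Marker counts are read beside all tested genes, of which 31.9% were lower and 32.9% higher with DUX4, and 42.3% and 40.2% with DUXC. The sum and the median of the 10 myogenic markers differed: the median went from 0.151 CPM with GFP to 0.156 with DUX4 and 0.663 with DUXC. DES went from 7.15 to 2.10 and 1.07 CPM, PAX7 to 0.568 and 1.13 CPM and MYF5 to 2.16 and 1.78 CPM. CDH5, PTPRC, CD3E, ADIPOQ, PLIN1 and FABP4 had no count with GFP. The part of these cell types in the results on Wnt genes was not tested, and in such bulk samples fewer cells of a type and less RNA per cell cannot be told apart.

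Of the 41 members 28 had enough counts to be tested and 13 did not, and every member had at least 1 count in some library. With DUX4, 7 of the 28 were higher (25.0%) and 14 lower (50.0%) than with GFP at an adjusted p under 0.05 in edgeR's quasi-likelihood test, where 32.9% and 31.9% of all 15956 tested genes were higher and lower. With DUXC, 10 were higher (35.7%) and 16 lower (57.1%), against 40.2% and 42.3% of all tested genes. With so many genes called, a count of calls is read only beside its background. At least 2-fold changes, with the same test, were lower in 9 members (32.1%) and higher in 5 (17.9%) with DUX4, against 5.26% and 10.5% of all tested genes. With DUXC they were lower in 10 members (35.7%) and higher in 9 (32.1%), against 7.97% and 21.3%. The median log2 fold change of the tested members was -0.19 with DUX4 and -0.46 with DUXC, where that of all tested genes was 0.0035 and -0.031. Setting the genes without a GFP count, DKK1 and RSPO2, at their bound could not move the member medians, since both lie above them either way. A gene that passed the filter only through the group where it is high is favoured to differ, which bears on WNT3, WNT6, FZD9 and RSPO2 (through DUXC), DKK1 (through DUX4) and RSPO1 (through GFP). Both comparisons share the GFP libraries.

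**Figure D1:**
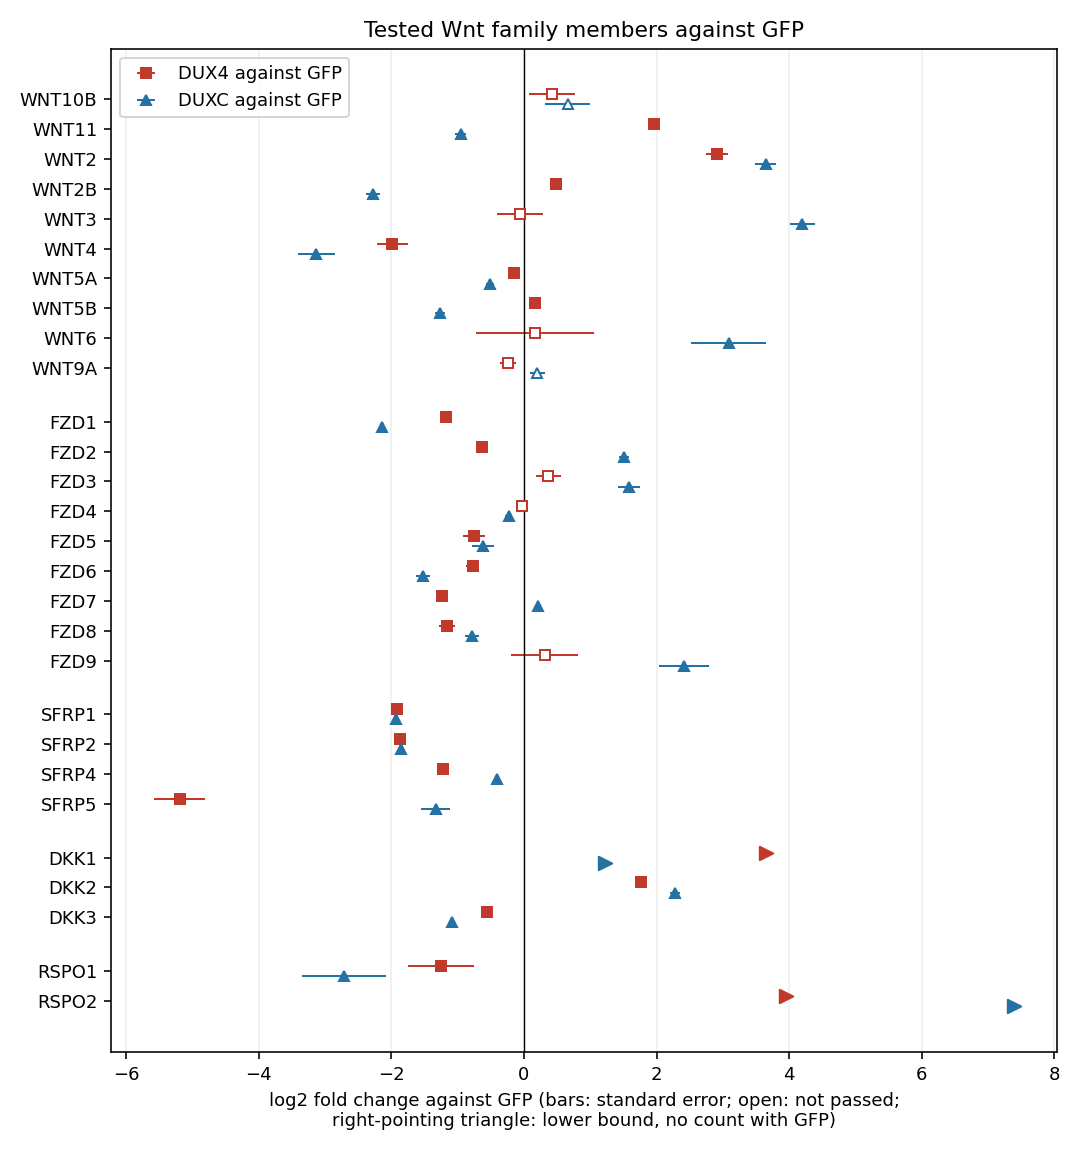
Log2 fold change of the 28 tested members against GFP (horizontal axis), red squares for DUX4 and blue triangles for DUXC, with bars of 1 standard error, open marks for values that did not pass and right-pointing triangles for lower bounds of genes without a GFP count. All 4 SFRP genes lie left of 0 in both comparisons, WNT2, DKK1, DKK2 and RSPO2 lie right of it in both, and WNT11, WNT2B, WNT5B, FZD2 and FZD7 lie on opposite sides.

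Among the ligands, WNT11 was the one that rose at least 2-fold with DUX4 and fell with DUXC. WNT11 (Sscrofa11.1, chromosome 9, 10413182 to 10435158), a Wnt that in zebrafish and frog embryos guides cell movements at gastrulation, had 9.59, 9.71 and 9.73 CPM with GFP, 37.7, 39.3 and 36.3 CPM with DUX4 and 4.67, 5.78 and 4.49 CPM with DUXC. No library of one group fell within another, with DUX4 highest and DUXC lowest. The log2 fold change was 1.96 ± 0.062 with DUX4 (adjusted p = 2.98e-31) and -0.95 ± 0.083 with DUXC (adjusted p = 1.20e-14). WNT2B (chromosome 4, 107906141 to 107923343), which in the mouse acts with WNT2 to specify the lung, was split in the same way. WNT2B had 8.17, 7.88 and 8.37 CPM with GFP, 11.2, 11.7 and 11.2 CPM with DUX4 and 1.78, 1.54 and 1.71 CPM with DUXC. All DUX4 libraries lay above and all DUXC libraries below the GFP range, with log2 fold changes of 0.48 ± 0.076 (adjusted p = 2.87e-07) and of -2.28 ± 0.11 (adjusted p = 2.00e-24). WNT5B, a relative of WNT5A that mostly acts without beta-catenin, had the most reads of the ligands with GFP. WNT5B had 16.6, 16.6 and 19.0 CPM with GFP, 19.3, 19.9 and 19.1 CPM with DUX4 and 6.95, 7.30 and 7.42 CPM with DUXC. The DUXC libraries were far below the others, and the lowest DUX4 library lay just above the highest GFP library. It fell with DUXC (log2 -1.27 ± 0.071, adjusted p = 1.21e-21) and was slightly higher with DUX4 (log2 0.16 ± 0.061, adjusted p = 0.0184), a call that was lost without DUX4 replicate 2 (adjusted p = 0.0676) and without GFP replicate 1 or 2 (0.106 and 0.101).

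WNT2 and WNT3 are ligands of the beta-catenin route, and from low levels WNT2 rose with both transgenes and WNT3 with DUXC. WNT2 (chromosome 18, 28945825 to 28993969), needed in the mouse for lung growth, had 0.514, 0.591 and 0.616 CPM with GFP, 3.86, 4.43 and 4.67 CPM with DUX4 and 6.69, 8.11 and 6.76 CPM with DUXC. With both transgenes it lay above every GFP library, by log2 2.91 ± 0.17 with DUX4 (adjusted p = 1.13e-20) and by log2 3.64 ± 0.15 with DUXC (adjusted p = 1.74e-26). WNT3 (chromosome 12, 17627291 to 17681197) is needed for gastrulation in the mouse. WNT3 had 0.294, 0.385 and 0.231 CPM with GFP, 0.271, 0.252 and 0.359 CPM with DUX4 and 5.97, 5.71 and 5.20 CPM with DUXC. The DUX4 libraries overlapped those of GFP (log2 -0.052 ± 0.35, adjusted p = 0.908), while the DUXC libraries all lay above both (log2 4.20 ± 0.19, adjusted p = 2.69e-25 against GFP). WNT6 was scarce, with 6 counts over the GFP libraries, 7 with DUX4 and 54 with DUXC, and was higher with DUXC (log2 3.09 ± 0.57, adjusted p = 3.06e-06) but not past the threshold with DUX4 (adjusted p = 0.888).

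WNT4 moved the other way. WNT4 (chromosome 6, 80110238 to 80138165), which in the mouse is needed for kidney tubules and the female reproductive tract, had 1.84, 1.87 and 1.44 CPM with GFP, 0.492, 0.390 and 0.410 CPM with DUX4 and 0.232, 0.196 and 0.153 CPM with DUXC. The 3 groups did not overlap, with GFP highest and DUXC lowest, and the log2 fold change was -1.99 ± 0.23 with DUX4 (adjusted p = 2.53e-10) and -3.13 ± 0.28 with DUXC (adjusted p = 2.95e-14). WNT5A, the main ligand of the planar polarity route, changed less, at 15.9 ± 0.977 CPM with GFP, 14.3 ± 0.536 CPM with DUX4 and 11.2 ± 0.256 CPM with DUXC. It fell by log2 -0.51 ± 0.066 with DUXC (adjusted p = 1.35e-09). With DUX4 its log2 fold change was -0.15 ± 0.063 (adjusted p = 0.0329), and this call was lost in 6 of 17 alternatives, namely without DUX4 replicate 2 or 3 (adjusted p = 0.13 and 0.0669), without GFP replicate 1 (0.23), with library size alone (0.0739), with DESeq2's size factors (0.0763) and with DESeq2 (0.134). WNT9A, known from joint formation in the mouse, and WNT10B, an inhibitor of fat cell formation in mouse cells, did not pass against GFP. WNT9A had 4.19 ± 0.489 CPM with GFP, 3.55 ± 0.161 CPM with DUX4 and 4.83 ± 0.708 CPM with DUXC (adjusted p = 0.0729 and 0.0949). WNT10B had 0.346 ± 0.102 CPM with GFP, 0.466 ± 0.136 CPM with DUX4 and 0.544 ± 0.203 CPM with DUXC (adjusted p = 0.298 and 0.0715). WNT9A passed with DUX4 without GFP replicate 3 (adjusted p = 0.027), and with DUXC without DUXC replicate 2 or GFP replicate 2 (0.0164 and 0.0416). It also passed with DUXC with DESeq2's size factors (0.0218), with library size alone (0.00803), with a mean of at least 1 CPM (0.0205) and with the 2 groups alone (0.0336). WNT10B passed with DUXC without DUXC replicate 3 or GFP replicate 2 (0.0238 and 0.0356), with DESeq2's size factors (0.0446), with library size alone (0.033) and with the 2 groups alone (0.043).

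The reads of the ligand genes were divided differently in the 3 groups. Summed over the 19 ligands they came to 58.6 ± 0.615 CPM with GFP, 92.6 ± 1.55 CPM with DUX4 and 44.6 ± 1.09 CPM with DUXC. WNT11 took 16.5 ± 0.240% of the ligand reads with GFP, 40.8 ± 0.914% with DUX4 and 11.2 ± 1.31% with DUXC. WNT2 went from 0.979 ± 0.0928% with GFP to 16.1 ± 1.47% with DUXC, and WNT3 from 0.519 ± 0.138% to 12.6 ± 0.709%. WNT5A took 27.2 ± 1.59% with GFP, 15.5 ± 0.724% with DUX4 and 25.1 ± 1.12% with DUXC. These are shares of reads, which longer transcripts raise, and the change of 1 gene's share between groups is what they show.

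**Figure D2:**
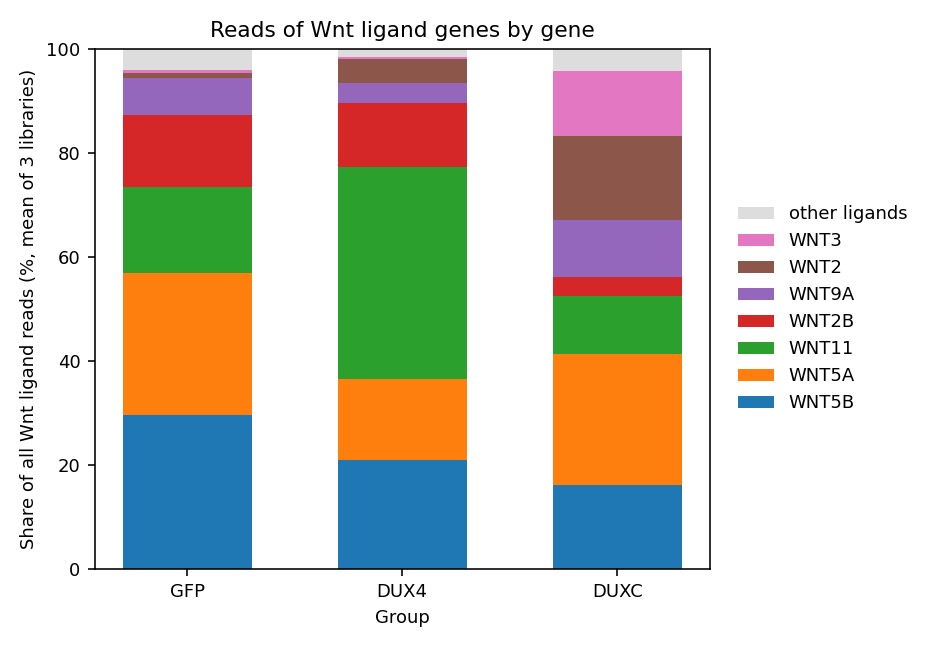
Share of all reads of the 19 Wnt ligand genes taken by each gene (vertical axis, percent, mean of 3 libraries) in the GFP, DUX4 and DUXC groups, with ligands that stay under 5% in every group pooled in grey. WNT11 widens to 40.8% with DUX4, and WNT2 and WNT3 widen to 16.1% and 12.6% with DUXC.

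The other 9 ligands were below the filter. WNT7B had 7 counts over the GFP libraries, 28 with DUX4 and 6 with DUXC, and WNT9B had 12, 17 and 31. In the same order WNT8B had 1, 8 and 12, WNT16 1, 7 and 10, and WNT10A 1, 2 and 8. WNT1, WNT3A, WNT7A and WNT8A had at most 5 counts in any group. WNT7A, which in the mouse acts through FZD7 on satellite cells, had 3 counts with GFP, 2 with DUX4 and 0 with DUXC. When all genes with a count were tested, WNT7B passed with DUX4 (adjusted p = 0.0109), and WNT8B, WNT9B and WNT16 passed with DUXC (adjusted p = 0.0159, then 0.0323 and 0.0358).

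Of the 10 Frizzled receptors 9 were tested. With DUX4, 6 fell, none rose and 3 did not pass; 5 of the 9 fell and 4 rose with DUXC. Among all tested genes 31.9% were lower and 32.9% higher with DUX4, and 42.3% and 40.2% with DUXC, to which the split with DUXC is close. The median log2 fold change of the 9 was -0.76 with DUX4 and -0.23 with DUXC. Reads of all Frizzled genes summed to 479.7 ± 8.17 CPM with GFP, 229 ± 1.904 CPM with DUX4 and 275 ± 6.51 CPM with DUXC. FZD1 gave 61.8% of these reads with GFP, 57.5% with DUX4 and 24.6% with DUXC, and FZD7 gave 27.6%, 24.5% and 55.7%. The sums therefore mostly follow FZD1 and FZD7 and not the family as a whole. FZD1, FZD2 and FZD7 form one subfamily by sequence; FZD1 fell with both transgenes, while FZD2 and FZD7 fell with DUX4 and rose with DUXC. FZD1 (chromosome 9, 71346994 to 71356488), the receptor with the most reads with GFP and DUX4, had 292, 299.8 and 298 CPM with GFP, 129, 133 and 133 CPM with DUX4 and 69.1, 67.6 and 65.8 CPM with DUXC. Its groups did not overlap, and it fell by log2 -1.17 ± 0.031 with DUX4 (adjusted p = 2.85e-34) and log2 -2.14 ± 0.033 with DUXC (adjusted p = 9.85e-45). FZD7 (chromosome 15, 105644164 to 105648860), the satellite cell receptor of WNT7A in the mouse, had 127, 134 and 136 CPM with GFP, 56.6, 56.9 and 54.3 CPM with DUX4 and 154, 156 and 148 CPM with DUXC. With DUX4 every library lay far below GFP (log2 -1.24 ± 0.035, adjusted p = 4.61e-33), and with DUXC every library lay slightly above it (log2 0.21 ± 0.033, adjusted p = 1.80e-07). FZD2 (chromosome 12, 18740417 to 18742301) showed the same split with a larger rise. FZD2 had 7.05, 6.88 and 6.62 CPM with GFP, 4.72, 4.06 and 4.51 CPM with DUX4 and 19.6, 21.5 and 17.6 CPM with DUXC. The changes were log2 -0.63 ± 0.096 with DUX4 (adjusted p = 1.29e-07) and log2 1.51 ± 0.077 with DUXC (adjusted p = 3.22e-23), with no overlap between groups.

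FZD3 and FZD6, the Frizzled pair of the planar polarity route in the mouse, moved apart with DUXC. FZD3 had 1.32, 0.950 and 0.975 CPM with GFP, 1.43, 1.45 and 1.33 CPM with DUX4 and 2.89, 3.04 and 3.82 CPM with DUXC. The DUXC libraries were the highest (log2 1.58 ± 0.16, adjusted p = 4.25e-12), and the DUX4 libraries lay just above those of GFP without passing (adjusted p = 0.0873, and 0.0302 without GFP replicate 1). FZD6 had 7.61, 8.40 and 7.75 CPM with GFP, 4.16, 5.03 and 4.69 CPM with DUX4 and 2.45, 2.62 and 3.19 CPM with DUXC. GFP was highest and DUXC lowest, with log2 fold changes of -0.77 ± 0.097 (adjusted p = 1.57e-09) and of -1.52 ± 0.11 (adjusted p = 9.61e-18). FZD5 and FZD8, another subfamily, fell. FZD8 had 5.996, 5.01 and 5.65 CPM with GFP, 2.56, 2.55 and 2.33 CPM with DUX4 and 3.56, 3.31 and 2.80 CPM with DUXC. Its GFP libraries lay above all others, and the log2 fold changes were -1.16 ± 0.12 with DUX4 (adjusted p = 2.90e-12) and -0.78 ± 0.11 with DUXC (adjusted p = 1.81e-08). FZD5 had 2.07 ± 0.127 CPM with GFP, 1.22 ± 0.0776 CPM with DUX4 and 1.35 ± 0.118 CPM with DUXC (log2 -0.76 ± 0.17, adjusted p = 1.01e-04, and log2 -0.62 ± 0.17, adjusted p = 7.07e-04). FZD4, which also serves as the receptor of norrin in the retina, changed little. It had 27.2 ± 0.465 CPM with GFP, 26.8 ± 0.517 CPM with DUX4 and 23.2 ± 0.780 CPM with DUXC, which passed with DUXC (log2 -0.23 ± 0.050, adjusted p = 4.08e-05) and not with DUX4 (adjusted p = 0.68). FZD9 was scarce, with 17, 22 and 92 counts with GFP, DUX4 and DUXC, and rose with DUXC (log2 2.41 ± 0.37, adjusted p = 1.08e-07). It did not pass with DUX4 (adjusted p = 0.607). FZD10 had 2 counts with DUX4 and none elsewhere, at which depth no difference was detectable.

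All 4 SFRP genes fell with both transgenes, where 31.9% of all tested genes were lower with DUX4 and 42.3% with DUXC. SFRP2 (chromosome 8, 75337311 to 75345926), a secreted antagonist abundant in connective tissue fibroblasts, accounted for 0.673 ± 0.00321% of all counts with GFP. SFRP2 had 7014, 6880.0 and 7018 CPM with GFP, 1831, 1899 and 1975 CPM with DUX4 and 1994, 1951 and 1851 CPM with DUXC. Every GFP library lay above every other library by more than 3-fold, and the log2 fold changes were -1.87 ± 0.032 with DUX4 (adjusted p = 3.44e-42) and -1.85 ± 0.032 with DUXC (adjusted p = 1.36e-42). SFRP1 (chromosome 17, 10436414 to 10489773), its close relative, fell by like amounts. SFRP1 had 110.0, 113 and 107 CPM with GFP, 25.7, 31.8 and 29.7 CPM with DUX4 and 28.0, 28.8 and 29.6 CPM with DUXC. The DUX4 and DUXC libraries overlapped each other, and the log2 fold changes against GFP were -1.92 ± 0.047 (adjusted p = 4.60e-28) and -1.93 ± 0.047 (adjusted p = 1.57e-28). SFRP5 (chromosome 14, 109120382 to 109125655), the third of that subfamily and known from mouse fat tissue as an inhibitor of WNT5A, was at a low level. SFRP5 had 1.71, 1.69 and 1.36 CPM with GFP, 0.0246, 0.0459 and 0.0513 CPM with DUX4 and 0.542, 0.637 and 0.714 CPM with DUXC. The 3 groups did not overlap, and DUX4 had 5 counts over its libraries where GFP had 189 (log2 -5.19 ± 0.38, adjusted p = 1.20e-16). DUXC had 75 counts (log2 -1.33 ± 0.22, adjusted p = 4.79e-07). SFRP4 (chromosome 9, 108404314 to 108414335), whose loss in humans causes a disorder of cortical bone, fell less. SFRP4 had 129.8, 129.8 and 130.0 CPM with GFP, 53.2, 56.3 and 58.6 CPM with DUX4 and 99.1, 99.97 and 94.0 CPM with DUXC. Its groups did not overlap either, with DUX4 lowest (log2 -1.21 ± 0.036, adjusted p = 3.01e-32) and DUXC between (log2 -0.41 ± 0.035, adjusted p = 4.35e-15). The summed level of the fibroblast markers was lower in every DUX4 and DUXC library than in every GFP library, a sum to which COL1A1 alone gave 16752 CPM with GFP, 10556 CPM under DUX4 and 5265 CPM under DUXC. The median marker went from 387 to 276 CPM with DUX4 but to 587 CPM with DUXC, where PDGFRA went from 373 to 926 CPM.

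The Dickkopf genes split. DKK3 (chromosome 2, 47385244 to 47444664), a divergent member that does not act on the LRP co-receptors as DKK1 does, had the most reads, and it fell. DKK3 had 333, 341 and 345 CPM with GFP, 223, 236 and 233 CPM with DUX4 and 159, 163 and 159.7 CPM with DUXC. The groups did not overlap, with DUXC lowest, at log2 -0.56 ± 0.030 with DUX4 (adjusted p = 1.65e-21) and log2 -1.08 ± 0.031 with DUXC (adjusted p = 2.44e-33). DKK2 (chromosome 8, 114862056 to 114974327), a ligand of LRP6, rose. DKK2 had 5.34, 5.06 and 4.47 CPM with GFP, 15.6, 17.8 and 16.9 CPM with DUX4 and 22.7, 25.4 and 24.1 CPM with DUXC. All DUXC libraries lay above all DUX4 libraries and these above all GFP libraries, with log2 fold changes of 1.76 ± 0.078 with DUX4 (adjusted p = 3.23e-25) and 2.28 ± 0.074 with DUXC (adjusted p = 5.43e-31). LOC110262177, a locus that overlaps DKK2, moved with it from 3 counts with GFP to 20 with DUX4 and 45 with DUXC, where DKK2 had 589, 2072 and 2865. DKK1 (chromosome 14, 97487854 to 97490118), the classical LRP antagonist and itself a target of beta-catenin, had no count with GFP, 16, 12 and 11 counts in the DUX4 libraries and 3, 1 and 3 in the DUXC libraries. Against the floor of 3 counts over the GFP libraries this was 12.5-fold higher with DUX4 and 2.33-fold higher with DUXC (adjusted p = 2.65e-07 and 0.00925). These folds leave out counting error in the 39 and 7 counts of DUX4 and DUXC. DKK4 had 3 counts with DUX4, 4 with DUXC and none with GFP and was not tested. Reads of the 4 DKK genes, most of them from DKK3, summed to 345 ± 6.04 CPM with GFP, 248 ± 7.51 CPM with DUX4 and 185 ± 3.67 CPM with DUXC.

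**Figure D3:**
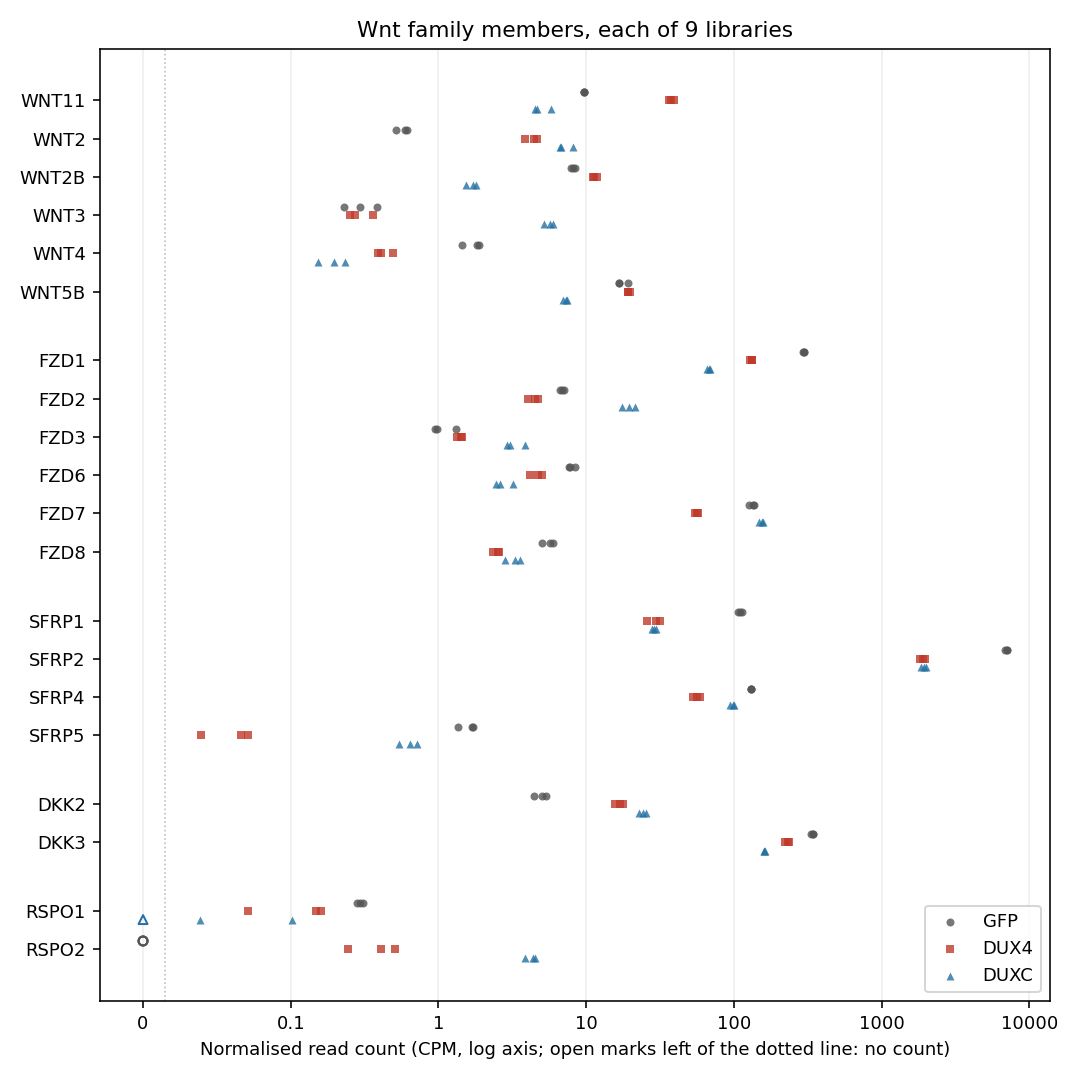
Normalised read count (CPM, log axis) of 20 members in each of 9 libraries, grey circles for GFP, red squares for DUX4 and blue triangles for DUXC, with open marks left of the dotted line for libraries without a count. The libraries of a group lie close together except at the lowest levels, and the GFP libraries of each SFRP gene lie to the right of all others.

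Among the R-spondins, RSPO2 rose from no count. RSPO2 (chromosome 4, 29415774 to 29577890), which in the mouse is needed for limb, lung and neuromuscular junction development, had no count in any GFP library, 0.246, 0.505 and 0.410 CPM with DUX4 and 4.36, 4.53 and 3.82 CPM with DUXC. Against the floor it was 15.4-fold higher with DUX4 and 168-fold higher with DUXC (adjusted p = 7.35e-09 and 1.24e-24), with every DUXC library above every DUX4 library. These folds leave out counting error in its 48 and 504 counts. RSPO1, a factor of ovary development in humans and mice, had the most reads of the 4 with GFP and fell. RSPO1 had 0.294, 0.282 and 0.308 CPM with GFP, 0.148, 0.161 and 0.0513 CPM with DUX4 and 0, 0.0245 and 0.102 CPM with DUXC. The GFP libraries lay above all others, and the log2 fold change was -2.72 ± 0.63 with DUXC (adjusted p = 1.30e-04), and -4.25 without DUXC replicate 3. With DUX4 it was -1.26 ± 0.50 (adjusted p = 0.0243), a call from 15 counts against 35 that was lost without DUX4 replicate 3 (adjusted p = 0.13), without GFP replicate 1 or 3 (0.0534 and 0.0562) and with DESeq2 (0.095). RSPO3, an endothelial and stromal R-spondin, was below the filter, with 8, 12 and 5 counts in the GFP libraries, 0, 1 and 0 in the DUX4 libraries and 5, 6 and 3 in the DUXC libraries. The ratio of DUX4 to GFP was 0.0385, with an exact 95% interval of 0.000939 to 0.235 that covers counting error only, and without the filter it passed with DUX4 (adjusted p = 3.84e-05) but not with DUXC (adjusted p = 0.196). RSPO4 had 1 count in all.

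Set directly against each other, DUX4 and DUXC differed in 23 of the 28 tested members (82.1%), where 82.4% of all tested genes differed. Of the 28 tested members 10 were higher (35.7%) and 13 lower (46.4%) with DUX4 than with DUXC, against 40.8% and 41.6% of all tested genes. At least 2-fold differences were higher with DUX4 in 5 members (17.9%) and lower in 8 (28.6%), against 9.83% and 20.7%. The 5 were WNT11 (log2 2.92 ± 0.069, adjusted p = 7.34e-37), WNT2B (log2 2.76 ± 0.10), DKK1 (log2 2.36 ± 0.56, from 39 and 7 counts), WNT5B (log2 1.43 ± 0.069) and WNT4 (log2 1.14 ± 0.37), and the largest of their adjusted p-values was 0.0044, for WNT4. The 8 that were lower with DUX4 were WNT3 (log2 -4.25 ± 0.19, adjusted p = 1.32e-25), SFRP5 (log2 -3.86 ± 0.47), RSPO2 (log2 -3.44 ± 0.20), WNT6 (log2 -2.93 ± 0.55), FZD2 (log2 -2.14 ± 0.082), FZD9 (log2 -2.10 ± 0.35), FZD7 (log2 -1.45 ± 0.035) and FZD3 (log2 -1.21 ± 0.16), with the largest adjusted p at 4.22e-06, for WNT6. Without DUX4 replicate 2 or 3 the value for WNT6 came to -2.32 or -3.55. WNT3, RSPO2, WNT6 and FZD9 passed the filter through DUXC alone, and DKK1 through DUX4 alone. Such genes are favoured to differ, and their part in the excess of 2-fold differences over all tested genes was not tested. SFRP4 was lower with DUX4 by less (log2 -0.80 ± 0.036), and so were WNT2 (log2 -0.74 ± 0.10), DKK2 (log2 -0.52 ± 0.061), WNT9A (log2 -0.44 ± 0.12) and FZD8 (log2 -0.38 ± 0.13), the last of them lost without DUXC replicate 1 (adjusted p = 0.0551). FZD1 (log2 0.96 ± 0.033), FZD6 (log2 0.75 ± 0.12), DKK3 (log2 0.52 ± 0.031), WNT5A (log2 0.36 ± 0.066) and FZD4 (log2 0.21 ± 0.050) were higher with DUX4. SFRP1 and SFRP2 did not pass, at log2 0.015 ± 0.053 (adjusted p = 0.802) and log2 -0.023 ± 0.031 (adjusted p = 0.491), which does not show that the factors act alike on them. SFRP2 was lower with DUX4 in 4 of 17 alternatives, namely with library size alone (log2 -0.12, adjusted p = 1.90e-04), with DESeq2's size factors (0.0238), with a mean of at least 1 CPM (0.00444) and with DESeq2 (0.0262). WNT10B, FZD5 and RSPO1 did not pass either (adjusted p = 0.49, 0.484 and 0.0735). Without DUX4 replicate 1 SFRP1 was higher with DUX4 (adjusted p = 0.0348), and RSPO1 was so without DUX4 replicate 3 or DUXC replicate 3 (0.0329 and 0.0125).

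Several ligand genes lie close together in the pig genome, and their counts can be set side by side. WNT3 and WNT9B lie 27848 bases apart on chromosome 12, with 1 other gene starting between them. Where WNT3 went from 36 counts with GFP to 668 with DUXC, WNT9B went from 12 to 31. WNT6 and WNT10A are 7844 bases apart on chromosome 15, with 6 and 1 counts with GFP and 54 and 8 with DUXC. WNT9A and WNT3A are 25631 bases apart on chromosome 2, with 498 and 1 counts with GFP and 572 and 5 with DUXC. WNT10B and WNT1 overlap on chromosome 5, with 41 and 1 counts with GFP and 65 and 5 with DUXC. Whether the changes of neighbours differ was not tested. Of the 28 tested members 9 overlap the span of another gene, and with the strand setting of the counting not given, their counts can hold reads of that gene. ST7L, which overlaps WNT2B, did not pass with either transgene (log2 -0.073 with DUX4 and -0.086 with DUXC). FBXL14, which overlaps WNT5B, was slightly higher with both (log2 0.18 and 0.17), close to the change of WNT5B with DUX4. MTERF1, which overlaps FZD1, had log2 fold changes of -0.17 and -0.021, and BAZ1B, around FZD9, of -0.096 and -0.073 at 102 CPM with GFP. The genes that overlap WNT2, WNT5A, WNT10B and FZD8 had at most 70 counts in any group.

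Other genes of the pathway were counted in 4 lists chosen by role, of which 68 genes were in the table and 61 tested. With DUX4, 17 of the 61 were higher and 34 lower, and with DUXC 23 were higher and 30 lower, so that 83.6% and 86.9% of the listed genes were called, against 64.8% and 82.5% of all tested genes. The first list held co-receptors and other cell-surface proteins of the pathway, planar polarity and glypican genes among them. Of its 14 tested genes 11 were lower with DUX4, against 31.9% of all tested genes, and 1, the planar polarity gene VANGL2 (log2 2.55 ± 0.28), was higher, against 32.9%. With DUXC 7 were lower and 6 higher, against 42.3% and 40.2%. LRP6, a co-receptor of the beta-catenin route, went from 173 ± 8.26 CPM with GFP to 125 ± 1.77 with DUX4 and 255 ± 6.04 with DUXC, and the R-spondin receptor gene LGR4 from 38.5 ± 1.06 to 20.7 ± 1.61 and 55.8 ± 1.27 CPM. Both were thus lower with DUX4 (adjusted p = 2.72e-17 and 2.08e-21) and higher with DUXC (6.63e-21 and 2.65e-15). LRP5 fell with both, from 34.5 ± 2.63 to 18.4 ± 0.534 and 18.6 ± 0.291 CPM, as did the glypican gene GPC4 (log2 -0.15 ± 0.039 and -0.65 ± 0.041).

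Of 8 tested genes of Wnt processing and other extracellular modulators, 3 rose and 3 fell with DUX4, and 1 rose and 7 fell with DUXC. Over all tested genes 32.9% rose and 31.9% fell with DUX4, and 40.2% and 42.3% with DUXC, shares against which the intracellular genes are to be read as well. WIF1, a secreted protein that binds Wnts, went from 15.2 ± 0.764 CPM with GFP to 31.8 ± 1.03 with DUX4 and 9.56 ± 0.379 with DUXC, higher with the first (log2 1.07 ± 0.055, adjusted p = 1.84e-22) and lower with the second (log2 -0.67 ± 0.065, adjusted p = 4.82e-13). WLS, the carrier that brings Wnts to the cell surface, moved the same way by less (log2 0.18 ± 0.032 and -0.23 ± 0.032). SOSTDC1, a secreted LRP6 antagonist, had 1 count with GFP, in replicate 1, 47 with DUX4 and 130 with DUXC, ratios of 45.3 (7.74 to 1826, exact 95% interval for counting error) and 130.0 (22.9 to 5173). The Wnt-cleaving protease gene TRABD2B fell with both (log2 -1.33 ± 0.29 and -2.33 ± 0.34), as did PORCN, the enzyme that lipidates Wnts (log2 -0.33 ± 0.079 and -0.50 ± 0.081), and FRZB, the SFRP-related antagonist (log2 -0.81 ± 0.26 and -1.32 ± 0.28). Without GFP replicate 3 the FRZB call with DUX4 was lost (adjusted p = 0.0665). Of 27 intracellular genes 6 rose and 17 fell with DUX4, and 10 rose and 13 fell with DUXC. TLE4, a co-repressor of TCF factors, went from 21.9 ± 0.342 to 32.6 ± 1.39 and 129 ± 4.55 CPM, higher with both (log2 0.58 ± 0.045 and 2.56 ± 0.041). DVL2, a Dishevelled scaffold, was lower with DUX4 (log2 -0.46 ± 0.055) and higher with DUXC (log2 1.79 ± 0.046); it overlaps ACADVL, whose part in its counts was not tested. The formin genes DAAM1 and DAAM2 of the planar polarity route went apart with DUXC (log2 1.896 ± 0.049 and -1.48 ± 0.051) and had log2 fold changes of -0.16 ± 0.056 and -0.60 ± 0.047 with DUX4, the first of them lost without DUX4 replicate 2, without GFP replicate 2 and with DESeq2 (adjusted p = 0.26, 0.0619 and 0.0533).

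Genes known as feedback and targets of beta-catenin moved in both directions: of 12 tested, 7 rose and 3 fell with DUX4, and 6 rose and 3 fell with DUXC, where 32.9% of all tested genes were higher and 31.9% lower with DUX4, and 40.2% and 42.3% with DUXC. AXIN2, the feedback scaffold most used as a readout, had 0.783, 0.796 and 1.08 CPM with GFP, 2.93, 2.68 and 2.38 CPM with DUX4 and 3.85, 4.29 and 3.67 CPM with DUXC. The groups did not overlap, and it rose with both (log2 1.59 ± 0.17, adjusted p = 1.95e-11, and log2 2.15 ± 0.16, adjusted p = 5.90e-17). LGR5, an R-spondin receptor and target, went from 2.82 ± 0.345 CPM with GFP to 15.6 ± 0.413 with DUX4 and 9.36 ± 0.821 with DUXC, and LEF1 from 0.331 ± 0.227 to 1.86 ± 0.200 and 0.775 ± 0.0360 CPM, both higher in each comparison (largest adjusted p = 3.98e-04). Without GFP replicate 3 the log2 fold changes of LEF1 were 3.19 and 1.92 in place of 2.48 ± 0.26 and 1.23 ± 0.31. AXIN2 overlaps CEP112 and LGR5 overlaps TSPAN8, whose part in their counts was not tested. Among the pathway genes named above, LRP5, LGR4, GPC4, WLS, SOSTDC1, TRABD2B, DAAM1 and DAAM2 overlap loci with LOC symbols. The part of those loci was not tested either. Other targets went apart. The TCF factor gene TCF7 had 43.1 ± 1.23 CPM with GFP, 62.1 ± 2.93 CPM with DUX4 and 13.1 ± 0.839 CPM with DUXC, higher with DUX4 (log2 0.53 ± 0.043) and lower with DUXC (log2 -1.72 ± 0.052), and the cyclin gene CCND1 had 341 ± 8.02 CPM with GFP, 656 ± 11.2 CPM with DUX4 and 143 ± 5.62 CPM with DUXC, again higher (log2 0.94 ± 0.031) and lower (log2 -1.25 ± 0.032). The Wnt deacylase gene NOTUM and the Frizzled ubiquitin ligase gene RNF43 rose with DUX4 (log2 1.76 ± 0.28 and 1.01 ± 0.13) and did not pass with DUXC (adjusted p = 0.376 and 0.0861). Without GFP replicate 1 RNF43 was lower with DUXC (adjusted p = 0.015). NOTUM entered the test through DUX4 and SP5 through DUXC alone. ZNRF3, the other such ligase, rose with DUXC (log2 0.82 ± 0.066) and was lower with DUX4 (log2 -0.18 ± 0.072, adjusted p = 0.0237), a call lost in 6 of 17 alternatives, with adjusted p-values of 0.00623 to 0.094 over all of them. Among those were the settings without DUX4 replicate 1 or 3 (0.0933 and 0.094) and without GFP replicate 1 or 3 (0.0881 and 0.0544). NKD2, a Dishevelled antagonist, fell with both (log2 -0.43 ± 0.073 and -1.83 ± 0.086), and its relative NKD1 had 20, 5 and 52 counts with GFP, DUX4 and DUXC and was not tested. SP5 and APCDD1 rose with DUXC (log2 2.07 ± 0.37 and 0.86 ± 0.22) and did not pass with DUX4, and TNFRSF19 was lower with DUX4 (log2 -0.74 ± 0.30, adjusted p = 0.0293), a call lost without DUX4 replicate 2, without GFP replicate 2 and with DESeq2 (adjusted p = 0.145, 0.209 and 0.0774). TNFRSF19 did not pass with DUXC (adjusted p = 0.413).

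**Figure D4:**
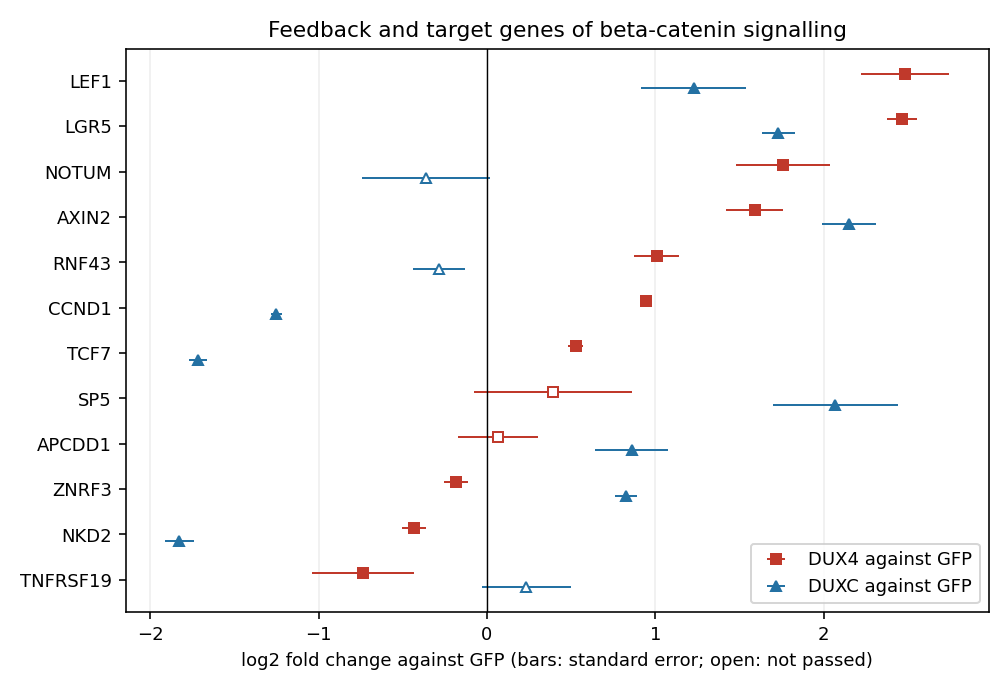
Log2 fold change against GFP (horizontal axis) of the 12 tested feedback and target genes of beta-catenin signalling, red squares for DUX4 and blue triangles for DUXC, with bars of 1 standard error and open marks for values that did not pass. LEF1, LGR5 and AXIN2 lie right of 0 with both, NKD2 lies left of it with both, and CCND1, TCF7 and ZNRF3 lie on opposite sides.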

How the data were processed

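Values for 9 libraries were deposited as raw counts of reads per gene, and the labels' protocols name a stranded mRNA kit. CASAVA 1.9, Trim Galore, featureCounts and genome build Sscrofa11.1 are named in the submitters' processing notes, and the aligner Subread in the file headers. Other versions, the annotation release and the strand setting: not given in the sources used here.

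Genes were filtered with filterByExpr by group (minimum count 10), which kept 15956, and scaled by TMM (factors 0.960 to 1.06). All libraries were fitted by group with edgeR 4.0.16 (R 4.3.3, robust quasi-likelihood, two-sided F test), with Benjamini-Hochberg adjustment over all tested genes in each of 3 contrasts and a threshold of 0.05. The pipeline was tested on simulated data. Standard errors are the log2 fold change over the square root of F. The coefficient of variation beyond counting noise, from edgeR's common dispersion over all groups, was 3.38%. Libraries of a group differed beyond sampling noise, and most so with DUX4. Chi-square per degree of freedom was 6.83 to 17.9 between DUX4 libraries, 3.19 to 4.39 between DUXC libraries and 2.62 to 3.67 between GFP libraries. The groups shared 1 estimate of the spread for each gene, so the standard errors do not reflect this difference. Genes without counts in a group were set at 3 counts over its libraries (0.0253 CPM with GFP), and genes with 1 to 3 counts get ratios with exact intervals. The bounds from that floor leave out counting error in the other group. Positions are RefSeq's for the same assembly, matched by symbol for all 41 members.

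Members and lists were chosen with earlier results of these data known. Every member is accounted for. Values in every library are given for members that passed with at least a 2-fold change and 1 CPM in the higher group in any contrast, and for the one with the most reads of each role. Of other pathway genes the 4 with the smallest p per list and 8 fixed targets are named. VANGL2, PORCN, FRZB, TNFRSF19, SP5 and APCDD1 were named after their values were seen. Alternatives were other scalings and filters, DESeq2 1.42.0, limma-voom (3.58.1), fits of 2 groups, a replicate block and leaving out each library.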

Additional observations from a re-analysis of the deposited data

Results flagged for a closer look

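For 5 of the 28 tested members the differences from GFP with DUX4 and with DUXC went in opposite directions, each past the threshold in edgeR. The test of DUX4 against DUXC passed for them as well. Over all tested genes 32.9% were higher and 31.9% lower with DUX4, and 40.2% and 42.3% with DUXC. How many of them went in opposite directions was not counted, so whether 5 of 28 is many or few cannot be said. Of all tested genes 82.4% differed between DUX4 and DUXC. WNT11, WNT2B and WNT5B were higher with DUX4 and lower with DUXC, and differed between the transgenes by log2 2.92 ± 0.069 (adjusted p = 7.34e-37), by log2 2.76 ± 0.10 (adjusted p = 7.33e-29) and by log2 1.43 ± 0.069 (adjusted p = 5.15e-24). FZD2 and FZD7 were lower with DUX4 and higher with DUXC, with differences of log2 -2.14 ± 0.082 (adjusted p = 3.67e-28), and log2 -1.45 ± 0.035 (adjusted p = 2.01e-36). In each of the 5, all 3 libraries of one transgene lay above all 3 of the other, which their choice by a passed direct test favours. The share of all tested genes without such overlap was not counted. Both differences from GFP are measured against the same GFP libraries. Of these calls against GFP, that of WNT5B with DUX4 was lost in 3 of 17 alternatives, and the others held in all 17.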

How the results depend on the processing

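Over 17 alternatives the numbers of members past the threshold stayed within 1.5 times the reported ones: 6 to 8 higher and 11 to 15 lower with DUX4, 8 to 13 and 13 to 16 with DUXC, and 8 to 12 and 11 to 14 between the transgenes. Other pathway genes called numbered 46 to 53, 45 to 56 and 43 to 55. Of 84 member results, 68 kept direction and call in all alternatives that could be run; a mean of at least 1 CPM and fits of 2 groups left out some scarce genes. Of 81 results of named pathway genes 71 did so. No value that passed changed its direction. Library size alone moved the median log2 fold change of all tested genes from -0.031 to 0.094 with DUXC and from -0.0078 to -0.11 between the transgenes, and testing all genes with a count moved them to 0.17 and -0.15.

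Values that had not passed and changed sign were these, and the cause was not tested. With DUX4 against GFP, FZD4 came to 0.00102 with DESeq2's size factors and 0.00104 with DESeq2, WNT6 to -0.34 with limma-voom, and leaving out single libraries gave -0.049 to 0.78 for FZD9, -0.21 to 0.15 for WNT3, -0.47 to 0.76 for WNT6 and -0.089 to 0.28 for APCDD1. With DUX4 against DUXC, SFRP1 came to -0.038 with DESeq2's size factors, -0.086 with library size alone, -0.060 with a mean of at least 1 CPM and -0.038 with DESeq2. With all genes that had a count, SFRP2 came to 0.019 and LRP5 to 0.026. Leaving out single libraries gave -0.046 to 0.11 for SFRP1, -0.051 to 0.015 for SFRP2, -0.46 to 0.085 for WNT10B and -0.029 to 0.014 for LRP5.

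Between libraries with the same number, residuals correlated at -0.0258 to 0.0318, and the numbers were not taken as pairs. With the replicate block the members called numbered 7 higher and 14 lower with DUX4, 10 and 16 with DUXC, and 10 and 13 between the transgenes. Depth limits the 13 untested members and DKK1, RSPO1, WNT6 and FZD9, which rest on few counts.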
